A study of Sus scrofa with 8 samples.

Results

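KRT8, KRT18 and KRT19 encode the keratins of simple epithelia, the single-layered linings of ducts, glands and tubes such as the oviduct. These 3 genes of 10901 named genes were taken by their symbols in the platform annotation, and each had 1 probe set. Keratins build intermediate filaments, the cytoskeletal ropes that give epithelial cells their resistance to stretch. Each filament is made from pairs of an acidic type I keratin and a basic type II keratin, and a keratin protein without a partner is broken down. KRT8 is the type II keratin of the set, and KRT18 and KRT19 are type I keratins that can pair with it. All of them are widely used as markers of epithelial cells.

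The values come from epithelial cells of the pig oviduct, kept in primary culture for up to a month. The cells of 45 crossbred landrace gilts aged about 9 months were pooled after collagenase and trypsin had freed them from excised epithelium, and were grown in medium with serum. Cultures were harvested at 24h, 7 days, 15 days and 30 days, with no treatment or genotype other than time in culture, and RNA of each harvest was hybridised to Affymetrix whole-transcript arrays. There were 2 arrays per time, 8 in all, which the labels call biological replicates without saying whether they hold separate pools of cells, so p-values measure only the spread between these samples. All values are log2 RMA expression values, and a gene was said to rise or fall only at a Benjamini-Hochberg adjusted p under 0.05 in limma over the 10901 genes. A level of one probe set cannot be set against that of another, so levels are compared over time within a gene. In a culture of mixed cells, fewer cells of a type and less RNA per cell cannot be told apart.

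Array medians over 27558 probe sets lay between 4.69 and 4.77, and array maxima between 12.76 and 12.99. The simple keratins ranged from 7.17 to 11.94 over all arrays. EPCAM, the epithelial adhesion molecule used to check the labelled cell type, read 11.22 and 11.24 at 24h, but at 30 days it stood at 3.23 and 3.38, under the lower quartile of both arrays (3.37 to 3.49 over all arrays). No detection calls were used, so a gene under that quartile is taken as near the floor, and its fold is given as a bound with such arrays set to their quartile. Over the same time the mean of 11 fibroblast markers went from between 4.83 and 4.84 at 24h to between 8.54 and 8.65 at 30 days. At 30 days against 24h, 9 of those 11 markers rose and 0 fell, where 20.2% of all genes rose and 21.1% fell.

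KRT8 and KRT19 were highest at 15 days, while KRT18 fell 3.22-fold between 24h and 30 days. In limma's moderated F test over the 4 times, all 3 simple keratins differed, at adjusted p = 0.00614 for KRT8, 3.06e-05 for KRT18 and 0.0220 for KRT19. The same test called 46.3% of all genes. Without replicate 2 of 15 days, the adjusted p of KRT8 was 0.0654, in a range from 2.92e-04 to 0.0654. That of KRT19 was 0.0822 and 0.0972 without replicate 1 or 2 of 15 days, in a range from 0.00186 to 0.0972 over the alternatives.

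**Figure D1:**
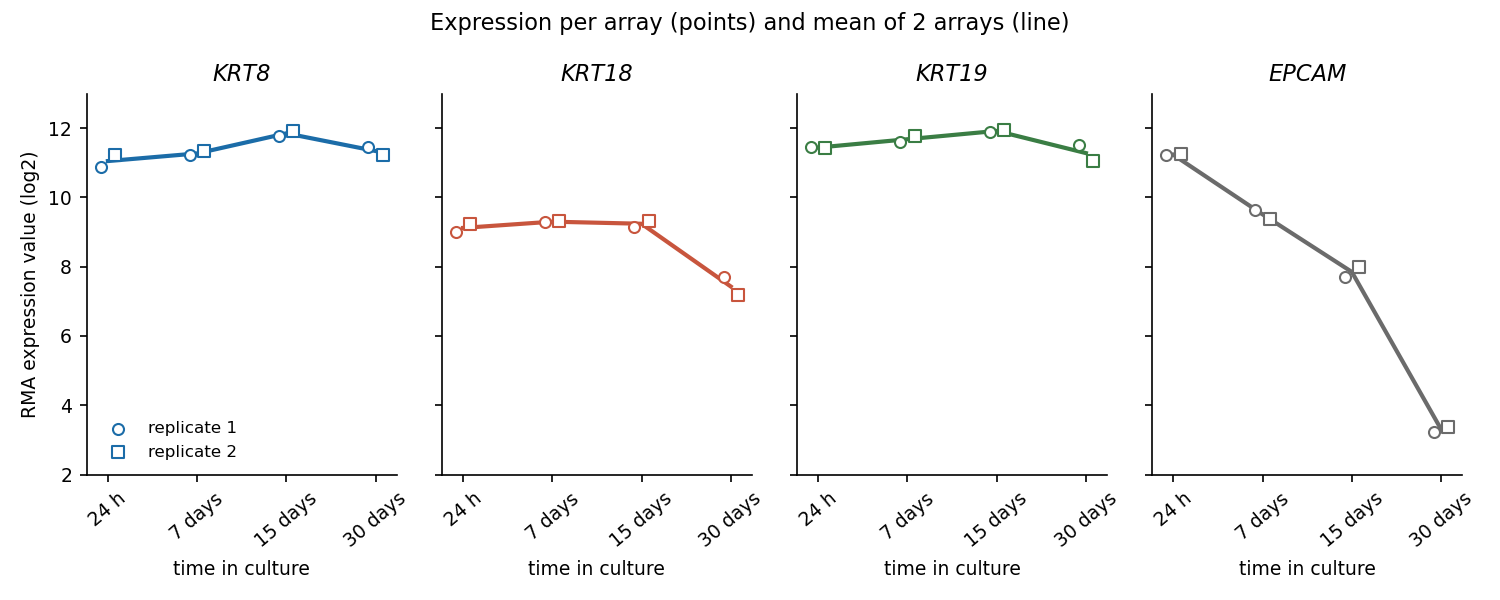
Log2 RMA expression values of KRT8, KRT18, KRT19 and EPCAM on each of the 8 arrays (y axis) at 24 h, 7, 15 and 30 days (x axis), with replicate 1 as circles, replicate 2 as squares and the mean of the 2 arrays as a line. KRT18 drops at 30 days to 7.70 and 7.17, KRT8 and KRT19 stay between 10.89 and 11.94, and EPCAM is lower at each later time.

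The type II keratin KRT8 read 10.89 and 11.22 at 24h, 11.22 and 11.33 at 7 days, 11.77 and 11.93 at 15 days, and 11.45 and 11.23 at 30 days. Its 15-day arrays stood above every other array, and the arrays of the other times lay between 10.89 and 11.45. KRT8 rose 1.73-fold from 24h to 15 days (log2 change 0.79 ± 0.14 SE, n = 2 and 2, limma adjusted p = 0.00163). It rose 1.49-fold from 7 to 15 days (0.57 ± 0.14, limma adjusted p = 0.0269). The call against 24h was kept with each array left out, whereas the adjusted p against 7 days became 0.111, 0.0781, 0.0901 and 0.192 without replicate 1 or 2 of 7 days or replicate 1 or 2 of 15 days, in a range from 0.00310 to 0.192 over the alternatives.

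After 15 days the KRT8 values were lower again, but this step missed the threshold (30 against 15 days -0.51 ± 0.14, 95% interval -0.83 to -0.18, limma adjusted p = 0.0562). That p was 0.0337 without either replicate of 24h, and ranged from 0.00856 to 0.329 over the alternatives tried. Against 24h, KRT8 at 30 days gave 0.29 ± 0.14 (interval -0.03 to 0.61, limma adjusted p = 0.148, but 0.0452 without replicate 2 of 24h, in a range from 0.0452 to 0.619), and at 7 days 0.22 ± 0.14 (interval -0.10 to 0.54, limma adjusted p = 0.303). Ordered by mean level, KRT8 was lowest at 24h (11.05 ± 0.23 SD), followed by 7 days (11.27 ± 0.075), 30 days (11.34 ± 0.16) and 15 days (11.85 ± 0.11). No neighbouring times in that order were called different, and 30 against 7 days gave 0.07 ± 0.14 with overlapping arrays (interval -0.25 to 0.39, limma adjusted p = 0.805).

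The type I partner KRT18 read 9.01 and 9.23 at 24h, 9.29 and 9.31 at 7 days, 9.16 and 9.32 at 15 days, and 7.70 and 7.17 at 30 days. Both arrays of 30 days lay more than a log2 unit under every earlier array, and the 6 earlier arrays lay within a narrow band. KRT18 fell 3.22-fold from 24h to 30 days (-1.69 ± 0.17 SE, n = 2 and 2, limma adjusted p = 2.88e-05). The fall was 3.49-fold from 15 to 30 days (-1.80 ± 0.17, limma adjusted p = 1.33e-04) and 3.64-fold from 7 to 30 days (-1.86 ± 0.17, limma adjusted p = 3.63e-05). These contrasts share the 30-day arrays, which themselves differed by more than those of any other time (SD 0.37, n = 2). Every one of the calls was kept under each of the 16 alternatives tried per comparison.

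Before the drop, KRT18 did not pass at any comparison. It gave 0.18 ± 0.17 at 7 days against 24h (95% interval -0.20 to 0.56, limma adjusted p = 0.510) and 0.12 ± 0.17 at 15 days against 24h (interval -0.26 to 0.50, limma adjusted p = 0.670). From 7 to 15 days it gave -0.06 ± 0.17 (interval -0.44 to 0.32, limma adjusted p = 0.902). Ordered by mean level, KRT18 was lowest at 30 days (7.43 ± 0.37 SD), followed by 24h (9.12 ± 0.15), 15 days (9.24 ± 0.11) and 7 days (9.30 ± 0.018), and only the step between 30 days and 24h was called among neighbours.

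The other type I keratin, KRT19, the smallest keratin and one that lacks the usual tail domain, read 11.45 and 11.42 at 24h, 11.60 and 11.77 at 7 days, 11.90 and 11.94 at 15 days, and 11.50 and 11.06 at 30 days. As with KRT8, its 15-day arrays stood above all others, but the 30-day arrays lay apart from each other on both sides of the 24h arrays. KRT19 rose 1.40-fold from 24h to 15 days (0.48 ± 0.15 SE, n = 2 and 2, limma adjusted p = 0.0291) and fell 1.56-fold from 15 to 30 days (-0.64 ± 0.15, limma adjusted p = 0.0246). Without replicate 1 or 2 of 24h or replicate 1 or 2 of 15 days, the rise had an adjusted p of 0.0793, 0.0978, 0.104 and 0.129. Without replicate 1 or 2 of 15 days or replicate 2 of 30 days, the fall had 0.130, 0.153 and 0.169.

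Centring each array on its median over the 10901 genes, which lay between 5.09 and 5.29, moved the median of all genes by -0.166 at 15 days against 24h and by 0.128 at 30 against 15 days. KRT19 then gave 0.31 (limma adjusted p = 0.110) and -0.51 (limma adjusted p = 0.0521), where the adjusted p ranged over all alternatives from 0.00450 to 0.129 and from 0.00230 to 0.169. At 30 days against 24h, KRT19 gave -0.16 ± 0.15 (95% interval -0.49 to 0.18, limma adjusted p = 0.470), and at 30 against 7 days -0.40 ± 0.15 (interval -0.74 to -0.07, limma adjusted p = 0.0777, but 0.0145 without replicate 1 of 30 days, in a range from 0.0124 to 0.484). At 7 days against 24h it gave 0.25 ± 0.15 (interval -0.09 to 0.58, limma adjusted p = 0.266), and at 15 against 7 days 0.23 ± 0.15 (interval -0.10 to 0.57, limma adjusted p = 0.406). Ordered by mean level, KRT19 was lowest at 30 days (11.28 ± 0.32 SD), followed by 24h (11.44 ± 0.023), 7 days (11.68 ± 0.12) and 15 days (11.92 ± 0.027), and no neighbouring times in that order were called different.

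Set out by comparison, at 7 days against 24h 0 of the 3 simple keratins were called, where 18.3% of all genes rose and 15.4% fell. At 15 days against 24h, KRT8 and KRT19 rose and none fell, against a background of 19.3% of genes that rose and 18.1% that fell. At 30 days against 24h, KRT18 alone fell, where 20.2% of genes rose and 21.1% fell. From 7 to 15 days, KRT8 alone rose, where 6.58% of genes rose and 6.72% fell. From 15 to 30 days, KRT18 and KRT19 fell, where 3.94% of genes rose and 6.11% fell. From 7 to 30 days, KRT18 alone fell, where 11.8% of genes rose and 14.1% fell.

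Because KRT8 and its type I partners are found together in filaments, their courses were compared within each array. The log2 difference between a pair of genes was taken on every array, set to a mean of 0 at 24h, and tested over the 4 times with an exact permutation test of the F statistic over all 105 ways to divide the arrays into sets of 2, with adjustment over the 3 pairs. The smallest p this test can give is 0.00952. The difference of KRT8 over KRT18 was -0.06 and 0.06 at 24h, 0.00 and 0.08 at 7 days, 0.68 and 0.68 at 15 days, and 1.82 and 2.13 at 30 days. It was at its starting value at 7 days, higher in both arrays of 15 days and highest in both of 30 days (F = 121, exact p = 0.0190, adjusted p = 0.0286). Without replicate 2 of 7 days or replicate 1 of 15 days the adjusted p of this exact test was 0.0571 in both cases, and the adjusted p ranged from 0.0286 to 0.125 over the alternatives.

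The type I keratins also differed from each other over time. KRT18 minus KRT19 was -0.12 and 0.12 at 24h, 0.00 and -0.14 at 7 days, -0.42 and -0.30 at 15 days, and -1.49 and -1.57 at 30 days. The 30-day arrays lay far under all others (F = 78.8, exact p = 0.0190, adjusted p = 0.0286), with an adjusted exact p of 0.0571 without replicate 2 of 7 days and 0.0857 without replicate 1 of 15 days, in a range from 0.0286 to 0.125 over the alternatives. KRT8 minus KRT19 moved less, to 0.25 and 0.37 at 15 days and 0.34 and 0.56 at 30 days, with 24h arrays at -0.18 and 0.18. That pair was not called (F = 4.38, exact p = 0.114, adjusted p = 0.114). Without replicate 2 of 24h its adjusted exact p was 0.0286, in a range from 0.0286 to 0.248.

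**Figure D2:**
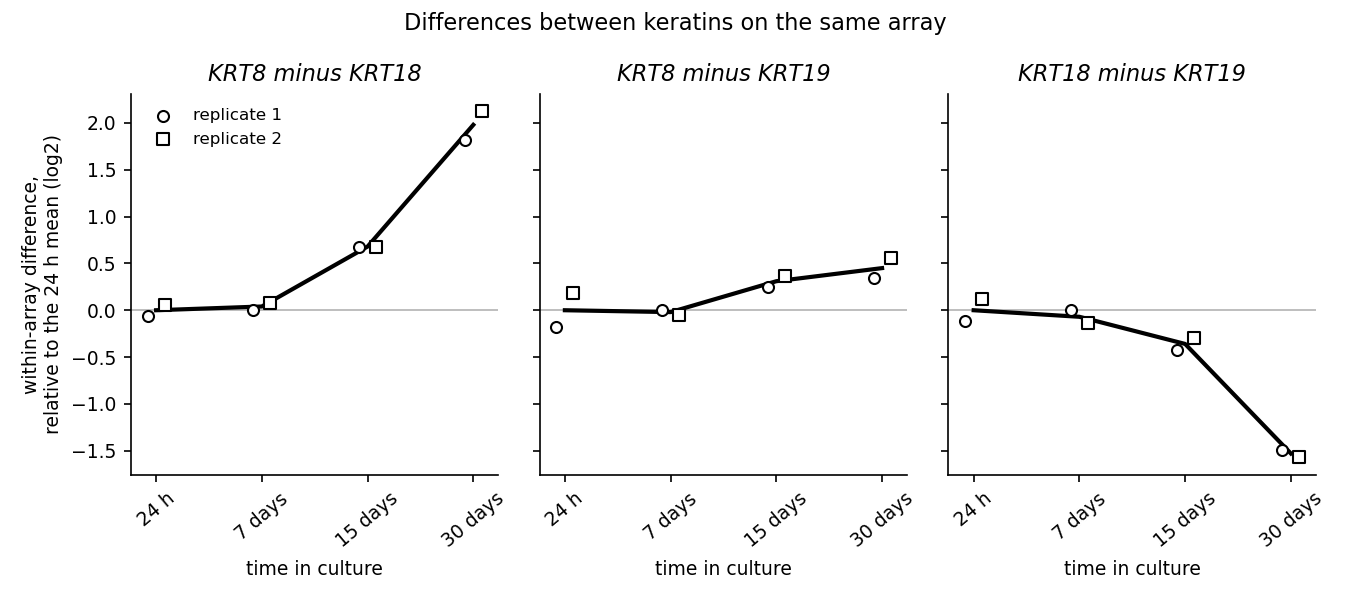
Within-array log2 differences between pairs of simple keratins (y axis, relative to the 24 h mean) at each time (x axis), with replicate 1 as circles, replicate 2 as squares and the mean of the 2 arrays as a line. KRT8 minus KRT18 reaches 1.82 and 2.13 at 30 days and KRT18 minus KRT19 reaches -1.49 and -1.57, while KRT8 minus KRT19 stays between -0.18 and 0.56.

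KRT8 and KRT18 lie close to each other on pig chromosome 5 in RefSeq's Sscrofa11.1 annotation, with a single long non-coding RNA gene between them, and KRT19 lies on chromosome 12 beside KRT15. KRT15, a keratin of basal cells, was measured at 3.19 and 3.44 at 24h and at 3.55 and 2.77 at 30 days. It passed at none of the comparisons, and its levels lay under the array medians. Many processed copies of KRT8 and KRT18 are known in mammalian genomes, and the specificity of the probes was not tested.

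EPCAM, an adhesion molecule that like the simple keratins marks simple epithelium, served as the epithelial reference. It read 11.22 and 11.24 at 24h, 9.64 and 9.38 at 7 days, 7.69 and 8.0 at 15 days, and 3.23 and 3.38 at 30 days. Each later time lay under every earlier array, and EPCAM was at least 225-fold lower at 30 days than at 24h (n = 2 and 2, limma adjusted p = 2.75e-09). On the same arrays, KRT8 minus EPCAM grew from a mean of 0 at 24h to 1.94 at 7 days and 4.18 at 15 days. With EPCAM set to the quartile, the mean at 30 days was at least 8.10 for KRT8, 6.13 for KRT18 and 7.66 for KRT19. These differences were looked at after the values were seen and are given with no test.

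Other simple keratins could be followed less well. KRT20, KRT80 and KRT222 were measured, 3 of 5 listed, and 0 passed at any comparison. Of all genes, 3.94% to 20.2% rose and 6.11% to 21.1% fell per comparison. KRT20, a keratin of intestinal and urothelial cells, stayed between 2.96 and 3.33, KRT80 between 3.55 and 3.93, and KRT222 between 2.76 and 3.09. On every array KRT20 and KRT222 lay under the lower quartile (3.37 at its lowest), near the floor. Their flat values therefore do not show stable expression. KRT7, the usual simple type II keratin beside KRT8, was not analysed here.

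Of 30 listed keratins of stratified, basal and squamous epithelium, 9 were measured, and of 17 hair keratins, 7. Taken with the other simple keratins, these made 19 keratins, which ranged from 2.76 to 5.01, and 18 of them lay under the array median on every array. Only 2 of them passed at any comparison. Both fell at 15 days against 24h, where 18.1% of all genes fell and 19.3% rose. KRT5, the type II keratin of basal cells, read 4.56 and 4.62 at 24h, 3.25 and 3.35 at 7 days, 3.11 and 3.36 at 15 days, and 3.33 and 3.67 at 30 days. Its 24h arrays alone stood out. All of its 7-day and 15-day arrays and 1 of its 30-day arrays lay under the lower quartile. KRT5 fell at 7 days (-1.29 ± 0.14 SE), 15 days (-1.35 ± 0.14) and 30 days (-1.09 ± 0.14) against 24h (limma adjusted p = 9.66e-05, 5.06e-05 and 1.59e-04). These are the measured changes, and their sizes are uncertain near the floor. With the low 30-day array set to its quartile, the change at 30 days was -1.05, a fall of at least 2.08-fold. KRT39, a hair keratin, fell at 15 days against 24h by 0.36 (SE 0.12, limma adjusted p = 0.0417). That call ended under further quantile normalization (limma adjusted p = 0.0593), with every probe set tested (0.0588) and with a trended robust variance (0.0568). It also ended with only the compared times fitted (0.0524), and without replicate 2 of 24h or replicate 1 or 2 of 15 days. The levels of 3.53 to 4.05 lay near the low end of the arrays.

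The remaining measured keratins were at low levels and passed nowhere. Among those of stratified epithelium, KRT1 and KRT2, keratins of the upper epidermis, stayed between 2.80 and 3.16 and between 3.89 and 4.06. KRT12, the keratin of the cornea, stayed between 3.40 and 3.83, and KRT24 between 2.91 and 3.22. The hair root sheath keratins KRT26, KRT27 and KRT28 stayed between 2.88 and 3.82. Hair keratins KRT31, KRT32, KRT34, KRT35, KRT82 and KRT84 lay between 3.37 and 5.01.

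Other intermediate filament genes gave 12 measured of 18 listed, with 0 that rose and 3 that fell at 30 days against 24h (median -0.17, all genes -0.02), near the 21.1% of all genes that fell. LMNB1, which encodes lamin B1 of the nuclear lamina, read 8.71 and 8.36 at 24h, 8.19 and 8.13 at 7 days, 8.40 and 8.26 at 15 days, and 6.44 and 5.97 at 30 days. As for KRT18, both 30-day arrays lay far under all others, and LMNB1 fell by 2.33 against 24h (SE 0.17, limma adjusted p = 3.45e-06). LMNA, the gene of lamins A and C, fell by 0.99 at 7 days (SE 0.13) and by 1.15 at 30 days (SE 0.13) against 24h. NES, which encodes nestin, fell by 1.00 (SE 0.14). Vimentin was not analysed here.

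Keratin filaments are anchored at desmosomes, the spot junctions between epithelial cells. Of 10 measured desmosome and linker genes, 7 fell and 2 rose at 30 days against 24h (median -0.68, all genes -0.02). Among all genes 21.1% fell and 20.2% rose, so the count that rose is near the background. DSP encodes desmoplakin, the protein that ties keratins to the desmosome, and went from 10.58 and 10.92 at 24h to 9.92 and 9.86 at 15 days and 9.59 and 9.47 at 30 days. Its arrays at 15 and 30 days lay under all of those at 24h and 7 days, and it fell by 1.22 over the month (SE 0.13, limma adjusted p = 5.27e-05). PPL, the linker periplakin, fell by 2.70 (SE 0.20), and PERP, a membrane protein of desmosomes, fell by 1.12 (SE 0.15). PKP2, the plakophilin of simple epithelium and heart, instead rose by 1.26 ± 0.11.

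Hemidesmosomes hold keratins to the basement membrane. Of 6 measured genes of hemidesmosomes and their laminin, 3 fell and 1 rose at 30 days against 24h (median -0.86, all genes -0.02). The shares of all genes were 21.1% and 20.2%, so the count that rose is near the background. COL17A1, the transmembrane collagen of hemidesmosomes, stood at 10.41 and 10.51 at 24h, 10.33 and 10.36 at 7 days, 9.57 and 9.66 at 15 days and 8.07 and 7.89 at 30 days. Its values were lower at each time after 7 days, and it fell by 2.48 over the month (SE 0.11, limma adjusted p = 1.50e-07). LAMB3, a chain of the laminin beneath them, fell by 2.11 (SE 0.18), and ITGB4, the integrin subunit that binds keratin linkers, fell by 1.50 (SE 0.15). DST, a plakin linker also counted among the desmosome and linker genes, rose by 0.98 ± 0.11. Calls of all these genes at 30 days against 24h were kept under each alternative.

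Of 15 measured genes whose proteins bind, fold or modify keratins, 8 fell and 3 rose at 30 days against 24h (median -0.34, all genes -0.02), where 20.2% of all genes rose and 21.1% fell, so the count that rose is near the background. TGM2, a transglutaminase that crosslinks proteins, was at 5.83 and 5.96 at 24h and at 8.85 and 8.72 at 30 days, a rise of 2.89 ± 0.12 (limma adjusted p = 6.45e-08). TGM1, the transglutaminase of squamous epithelium, fell by 2.20 (SE 0.14). SFN, the 14-3-3 sigma protein of epithelia, read 9.61 and 10.03 at 24h and 10.62 in both arrays of 7 days. It read 8.28 in both of 15 days, and 8.45 and 8.28 at 30 days. Its peak was thus at 7 days, and it fell by 1.45 over the month (SE 0.15). HSPB1, a small heat shock protein found with keratin filaments, fell by 1.06 (SE 0.20). The count that rose was 1 under further quantile normalization and with only the compared times fitted. It was also lower without replicate 1 of 24h or without any 1 of the arrays of 15 and 30 days.

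**Figure D3:**
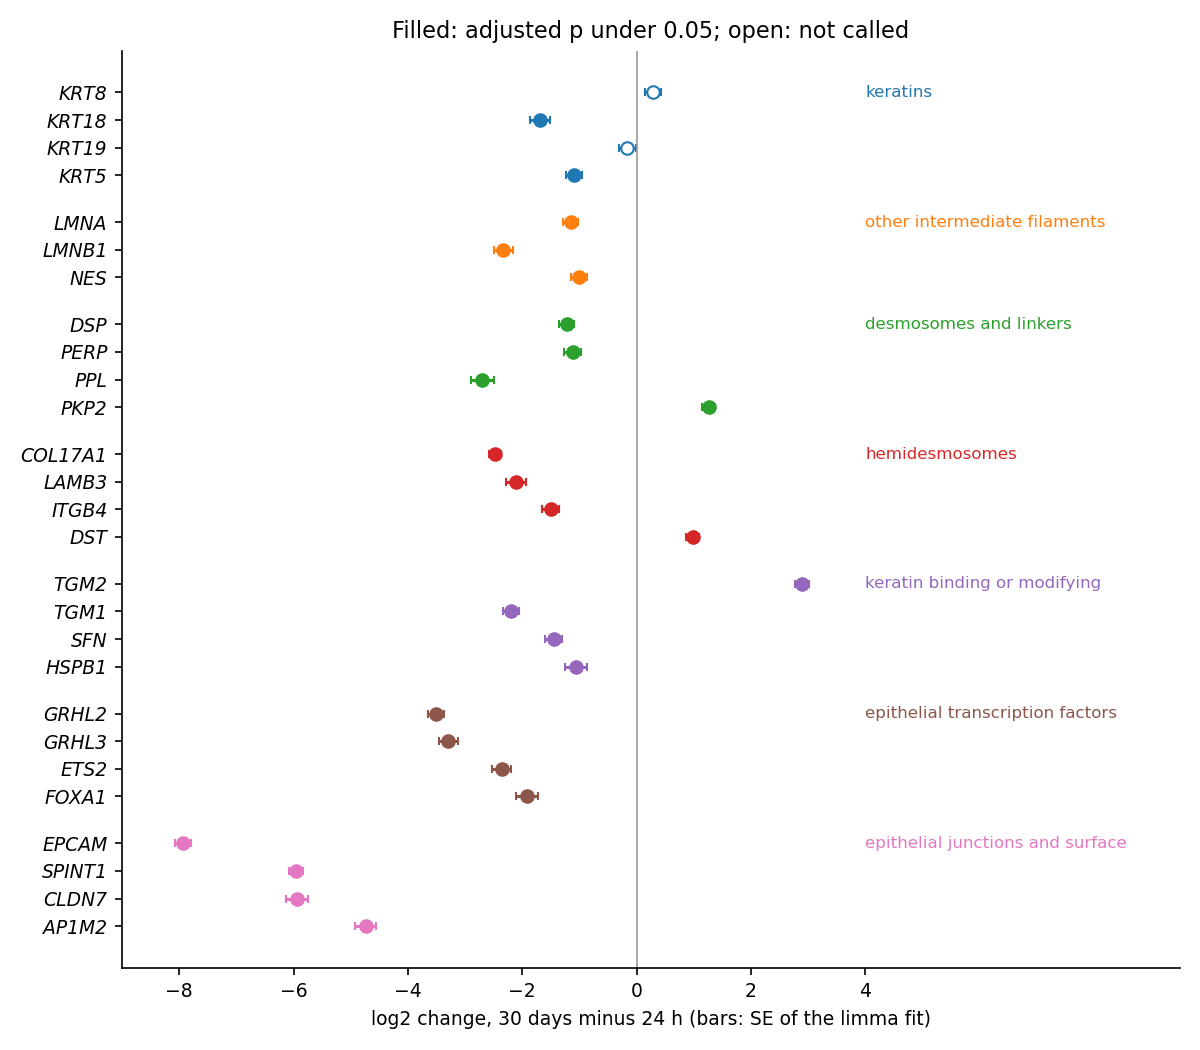
Log2 change from 24 h to 30 days (x axis) of the simple keratins, KRT5 and genes of keratin anchoring, binding and epithelial identity (y axis, grouped by list). Points are limma estimates from 2 arrays per time and bars their SE, and filled points have an adjusted p under 0.05. KRT8 and KRT19 are the only open points, at 0.29 and -0.16. All points are measured changes. For EPCAM and AP1M2 both 30-day arrays lay under the lower quartile, and the bounds are -7.81 and -4.64. For KRT5, FOXA1 and CLDN7, 1 of the 30-day arrays lay under it.

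Of 13 measured transcription factors of epithelial genes, 9 fell and 1 rose, or 0 without replicate 1 of 24h or of 30 days, at 30 days against 24h (median -1.06, all genes -0.02). Among all genes 21.1% fell and 20.2% rose in this comparison. GRHL2, a grainyhead factor that maintains epithelial junction genes, went from 7.58 and 7.48 at 24h to 5.98 and 5.85 at 7 days and 3.93 and 4.13 at 30 days. It fell by 3.51 (SE 0.14, limma adjusted p = 4.80e-08), and its relative GRHL3 fell by 3.29 (SE 0.17). ETS2 fell by 2.36 (SE 0.17), and FOXA1, a forkhead factor of glandular epithelium, fell at least 3.49-fold, with 1 of its 30-day arrays under the lower quartile. Of the junction and surface genes of epithelium, 15 of 16 fell and 0 rose (median -2.50, all genes -0.02). The count that rose was 1 under further quantile normalization and with a trended robust variance. It was also higher without either replicate of 15 days or replicate 1 of 30 days. Beside EPCAM, SPINT1, an inhibitor of surface proteases, fell by 5.96 (SE 0.12), CLDN7, a tight junction claudin with 1 of its 30-day arrays under the lower quartile, fell at least 55.9-fold, and AP1M2, a sorting adaptor of epithelia with both under it, fell at least 24.9-fold.

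Of 9 measured transcription factors of epithelial-mesenchymal transition, 4 rose and 2 fell at 30 days against 24h (median 0.24, all genes -0.02). The shares of all genes were 20.2% and 21.1%, so the count that fell is near the background. PRRX1, a homeobox factor of mesenchyme, rose at least 12.6-fold, from 3.01 and 3.11 at 24h, both under the lower quartile, to 7.19 and 7.08 at 30 days. TCF4 rose by 1.77 ± 0.13 and KLF8 rose by 1.29 ± 0.12. SNAI2, a repressor of epithelial cadherin, fell by 2.94 (SE 0.25) and had its highest values, 8.10 and 7.79, at 24h.

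Markers of oviductal epithelium and of other cell types were followed on the same arrays. At 30 days against 24h, 20.2% of all genes rose and 21.1% fell. Mesothelium, which also makes KRT8, KRT18 and KRT19, was followed with 6 measured markers. Their mean went from between 6.45 and 6.47 at 24h to between 6.96 and 6.97 at 30 days. It already lay between 6.92 and 7.03 at 7 days, and between 6.87 and 6.96 at 15 days. At 30 days 3 of these markers rose and 1 fell, and the count that fell is near the background. The 6 markers of smooth muscle and myofibroblasts went from between 5.93 and 5.97 to a mean of 8.52 in both 30-day arrays, and 5 rose. For oviductal secretory cells, the mean of 7 markers went from between 7.93 and 8.21 to between 6.06 and 6.12, with 4 that fell and 2 that rose. The mean of 8 markers of motile ciliated cells went from between 4.41 and 4.69 to between 3.76 and 3.80, and 3 fell. For 6 endothelial markers the mean at 30 days was between 3.77 and 3.87, and for 9 leukocyte markers between 3.95 and 3.99, both under the array medians. The part of these cell types in the levels of the simple keratins was not tested.

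Genes with a course most like each simple keratin were named by the root mean square difference of log2 values, each centred on its own mean over the 8 arrays, among 9845 other named genes. The 5 nearest to KRT8 were CDH2, which encodes N-cadherin, at 0.091, SHROOM4, an actin-binding protein, at 0.092, CPT1A, the mitochondrial carnitine palmitoyltransferase, at 0.093, TMOD1, a cap of actin filaments, at 0.104, and FRMD6, a FERM domain protein, at 0.116. For scale, KRT8 itself varied around its mean by 0.311. CDH2 read 9.00 and 9.05 at 24h, 9.66 and 9.80 at 15 days and 9.33 and 9.17 at 30 days. Its highest arrays were, as for KRT8, those of 15 days, which follows from choosing it for its likeness to KRT8.

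KRT18 varied around its mean by 0.790, and the 5 nearest genes were SPC25, a kinetochore protein, at 0.157, TRIM29, a tripartite motif protein, at 0.191, SKAP1, a signalling adaptor, at 0.200, TNFRSF21, a death domain receptor, at 0.203, and H2AFZ, the histone variant H2A.Z, at 0.214. SPC25 read 6.06 and 6.15 at 24h, 6.33 and 6.26 at 15 days and 4.88 and 4.51 at 30 days. All 5 were lowest in both arrays of 30 days, which follows from choosing them for their likeness to KRT18, and their values were 1.30 to 1.88 lower at 30 than at 15 days.

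KRT19 varied by 0.270, and the nearest were TC2N, a C2 domain protein, at 0.101, PLD2, a phospholipase, at 0.103, C1H14orf37 at 0.104, SHC1, an adaptor of growth factor receptors, at 0.111, and CDK20, a cyclin-dependent kinase, at 0.120. These distances were closer to the spread of KRT19 itself than those of KRT8 or KRT18 were to theirs. TC2N read 9.79 and 9.72 at 24h, 10.21 and 10.19 at 15 days and 9.78 and 9.57 at 30 days.

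**Figure D4:**
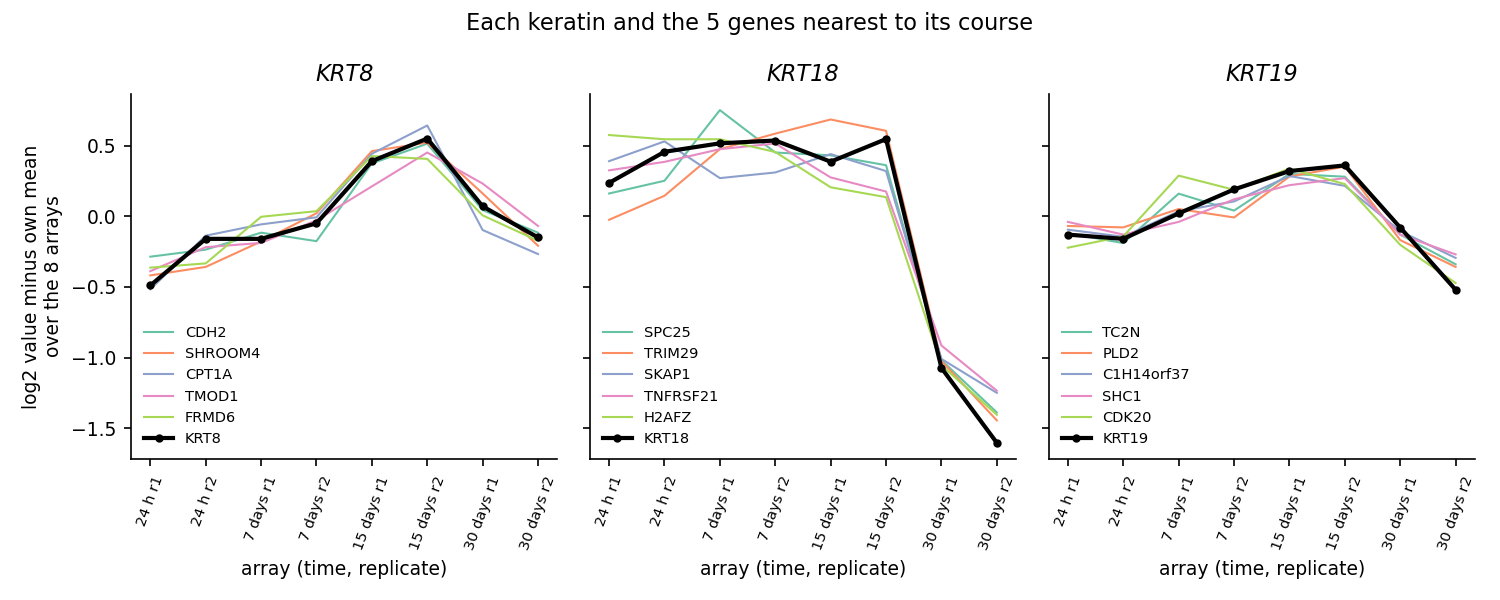
Log2 values centred on each gene's own mean over the 8 arrays (y axis) for KRT8, KRT18 and KRT19 (black, with points) and the 5 genes nearest to each (coloured lines), by array in order of time and replicate (x axis). KRT8 and KRT19 are highest at 15 days, and KRT18 and the 5 genes near it are lowest at 30 days. The likeness of the coloured lines to the black line follows from how those genes were chosen.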

How the data were processed

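The deposited table holds log2 expression, 1 value per probe set and array, which the authors computed with RMA, per the submitters' processing notes. Its range was the basis for taking the scale as log2. No source used here gives the software version or filters. RMA gives arrays nearly one distribution, so a shift of most genes would not show, and no detection calls were used.

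Gene names came from the platform annotation and were checked by identifier against RefSeq genes of Sscrofa11.1. Of 27558 probe sets, 11968 had 1 symbol, 379 had several or a conflicting symbol and 15211 were unnamed here. The probe set with the highest mean was kept per gene, which left 10901 genes. Vimentin, KRT7 and other listed genes outside this set were not analysed here.

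Models were fitted across all genes with limma 3.58.1 in R 4.3.3 (lmFit, eBayes), with 1 mean per time over 8 arrays and 4 residual degrees of freedom. Comparisons share arrays. Calls used Benjamini-Hochberg adjusted p under 0.05, intervals are 95% from the moderated fit, and list medians stand beside those of all genes. The functions were tested on simulated data.

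Of the lists, every measured keratin was named, and up to 4 others per list with the largest called change at 30 days against 24h, plus EPCAM and the 5 nearest genes per keratin. The keratins and lists were chosen with earlier results of these data known. Alternatives were median centring, quantile normalization, no dim genes (25% removed), other probe set rules, a trended robust variance, only the compared times, the replicate block and each array left out.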

Additional observations from a re-analysis of the deposited data

How the results depend on the processing

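The 3 calls of KRT18 at 30 days and the rise of KRT8 from 24h to 15 days were kept under all 16 alternatives each. Of 288 alternative values of changes in the simple keratins, 258 kept direction and side of the threshold, 15 lost the call, 10 gained it and 5 changed sign. Centring on array medians gave KRT18 -0.05 and KRT19 0.31 at 15 days against 24h, KRT19 -0.51 at 30 against 15 days, and an adjusted F p of 0.0731 for KRT19 in limma, as the median of all genes moved by -0.166 and 0.128 there. Quantile normalization gave KRT8 -0.52 at 30 against 15 days and -0.04 at 30 against 7 days, and KRT19 -0.53 at 30 against 7 days. KRT8 at 30 against 15 days, -0.51, passed without the dimmest 25% of genes, with a trended robust variance and with only those times fitted, and KRT19 at 30 against 7 days, -0.40, passed with the trended variance. With every probe set tested, KRT8 at 15 against 7 days (0.57) and KRT19 at 30 against 15 days (-0.64) lost the call, and counts over 27558 probe sets were 7304 at 7 days, 8183 at 15 days and 9475 at 30 days against 24h (3669, 4080 and 4494 genes), 5092 at 30 against 7 days (2832) and 10122 over all times (5048). With 1 array left out, the lone array was assumed to vary like the other groups. KRT8 then ranged from 0.12 to 0.45 at 30 days against 24h, 0.49 to 0.65 at 15 against 7 days, -0.62 to -0.39 at 30 against 15 days and -0.05 to 0.18 at 30 against 7 days. KRT18 ranged from -0.14 to 0.02 at 15 against 7 days. KRT19 ranged from 0.46 to 0.50 at 15 days and -0.38 to 0.06 at 30 days against 24h, -0.86 to -0.42 at 30 against 15 days and -0.63 to -0.18 at 30 against 7 days. Counts ranged from 633 to 1583 at 15 against 7 days (1450 with all arrays), 506 to 1211 at 30 against 15 days (1096) and 1886 to 2971 at 30 against 7 days (2832). The adjusted F p in limma ranged from 0.00384 to 0.0654 for KRT8 and 0.00487 to 0.0972 for KRT19. Exact permutation p values of the pairs ranged from 0.019 to 0.0286 (KRT8 and KRT18), 0.0286 to 0.248 (KRT8 and KRT19) and 0.019 to 0.0571 (KRT18 and KRT19), in alternatives chosen after seeing the data. With the replicate block, exact p was 0.0417 for KRT8 and KRT18, the smallest that test can give, and 0.0833 for KRT18 and KRT19 (adjusted p = 0.125 for both). Deviations of same-numbered arrays were weakly but positively correlated at every pair of times (r from 0.008 to 0.268). The numbers were not taken as pairs in the main fit, but these correlations cannot exclude a pairing. The block changed no other call of the simple keratins. The cause of these shifts was not tested. Only 2 arrays per time limit the precision.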
